A study of Xenopus laevis with 6 samples.

Results

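The regions described here are stretches of the Xenopus laevis genome at which FLAG-tagged β-catenin was called enriched by 2 peak callers in replicates 1 and 2, and by neither caller in replicate 3. They were chosen by the deposited peak lists themselves: a MACS peak of replicate 1 on a chromosome was kept when it shared at least 1 bp with a replicate 1 HOMER peak, a replicate 2 MACS peak and a replicate 2 HOMER peak, and shared none with any replicate 3 peak. This gave 972 regions out of 9449 chromosomal replicate 1 MACS peaks, or 10.3%, and out of 101602 peaks in the 6 per-replicate lists. The closest comparison was with the 1573 peaks that met the same 4 conditions in replicates 1 and 2 but did overlap a replicate 3 peak; the 2 sets together made up 2545 regions.

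The series comprised 3 FLAG ChIP libraries and 3 inputs from whole embryos at stage 11.5, during gastrulation. All 6 samples carried the same treatment label: triple FLAG-tagged β-catenin, 500 pg, delivered animally to both blastomeres at the 2-cell stage. Sonication was done on pools of 100 embryos per the labels, and the tagged protein was said not to alter the phenotype. The enriched protein was thus the injected form and not the embryo's own, and cells of every type were pooled. Embryos lacking the tag were not analysed here, so a region is a peak call and not a proven site of binding.

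β-catenin is the nuclear effector of canonical Wnt signalling. It has no DNA-binding domain of its own and reaches chromatin through partners, above all the TCF/LEF factors. In the early frog embryo it acts first in setting up the dorsal side and, during gastrulation, in zygotic Wnt signalling that patterns the mesoderm and neural plate. The Xenopus laevis genome is allotetraploid and is carried on 9 pairs of homoeologous chromosomes, a long member called L and a short one called S, which descend from a pair of ancestral species.

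The per-replicate lists differed widely in length. MACS gave 10351, 27402 and 40056 peaks and HOMER 9258, 10317 and 4218 peaks in replicates 1, 2 and 3, so replicate 3 had the longest MACS list and the shortest HOMER list. Its part in what follows was not tested beyond the alternatives given. The lists hold no read totals, so depth is unknown, and a missing replicate 3 peak is a missing call and not a measured absence of β-catenin. Each list came from 1 library and neighbouring regions are not independent. For that reason, and since the lists themselves chose the regions, values are described without a test. Intervals quoted are 95% Wilson intervals and cover counting error only.

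The overlap with replicate 3 divided the 2545 regions unevenly between callers. Of these, 972 (38.2%) overlapped no replicate 3 peak, which is the contrast that the choice itself used. Over all 9449 chromosomal replicate 1 MACS peaks, 64.4% overlapped none. Among the 1573 regions that did overlap one, 817 met a peak of both callers, 700 a HOMER peak alone and 56 a MACS peak alone. The replicate 3 HOMER list, with 3916 chromosomal peaks, thus held 1517 of the 2545 regions, whereas the MACS list, with 36384, held 873. Had the MACS list alone been asked, 1672 regions would have counted as missing from replicate 3, against 1028 with the HOMER list alone. The replicate 3 HOMER scores at the 1517 regions had a median of 14, where the list began at 9 and had a median of 11.

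The 972 regions rested on nearly as many separate calls in the other lists. They overlapped 970 distinct HOMER peaks of replicate 1, 967 HOMER peaks of replicate 2 and 1088 MACS peaks of replicate 2. In 118 regions more than 1 replicate 2 MACS peak was overlapped, 3 at most. These calls made up 10.5% of the replicate 1 HOMER list and 9.37% of the replicate 2 HOMER list, but 3.97% of the much longer replicate 2 MACS list.

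Regions without a replicate 3 peak had moderate scores in replicates 1 and 2. Scores are the callers' own and are compared only within a list. In the replicate 1 MACS list their median was 119 (quartiles 83.8 and 165, highest 531), against 190 for the 1573 regions with a replicate 3 peak and 75.9 for all chromosomal peaks of that list. In the replicate 2 MACS list the median was 110 (quartiles 72.0 and 193, highest 899), against 307 for those with a replicate 3 peak and 69.9 for all. By median they therefore lay above the middle of each MACS list and below the regions that replicate 3 also held. Chromosomal peaks at large did not have to meet the other lists, and how much of this order the choice itself set was not tested. In 118 of the regions the replicate 2 MACS score was the highest of several peaks, whereas the peaks at large counted singly.

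HOMER scores followed the same order. The replicate 1 HOMER median was 26 in regions without a replicate 3 peak, against 36 in those with one and 19 over all chromosomal peaks of that list. In replicate 2 it was 30, against 47 and 21. The highest HOMER scores reached without a replicate 3 peak were 69 and 97 in replicates 1 and 2, while regions with one reached 146 and 182. Where replicate 3 had a HOMER peak alone, the medians lay between the extremes, at 32 in replicate 1 and 39 in replicate 2. The 56 regions with a replicate 3 MACS peak alone had HOMER medians of 25.5 and 31, close to those with no replicate 3 peak, but MACS medians of 181 and 223, which were well above.

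**Figure D1:**
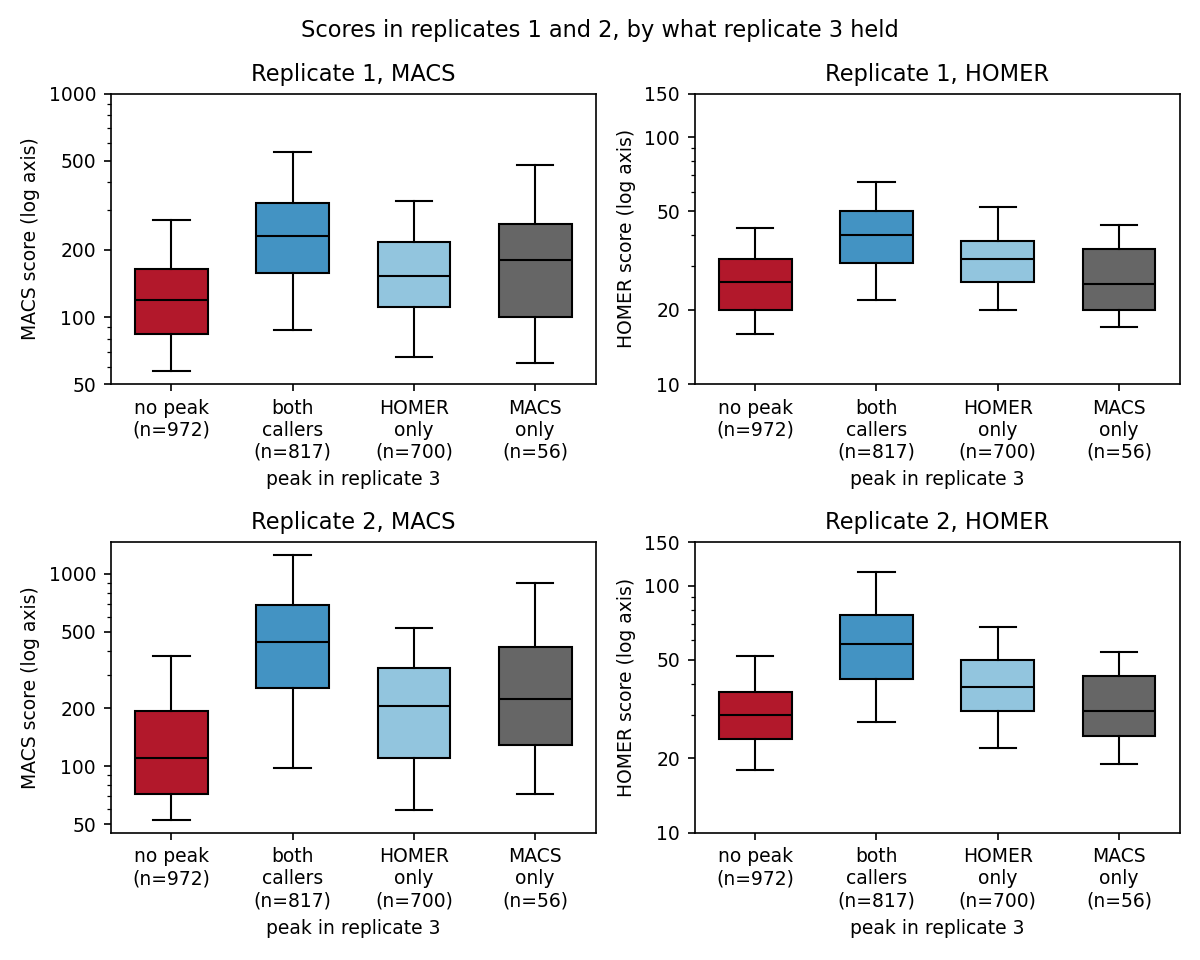
Scores of the 2545 regions in each of the 4 lists of replicates 1 and 2 (log axes), split by whether replicate 3 held no peak, peaks of both callers, a HOMER peak alone or a MACS peak alone; boxes give quartiles and the median, whiskers the 5th and 95th percentiles. The 972 regions with no replicate 3 peak have the lowest MACS medians, 119 and 110, and ranges that overlap those of every other class.

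Most of the regions belonged to the better-scoring part of each list. By whole-list rank, 83.4%, 85.4%, 76.7% and 84.5% of them lay in the better 50% of the replicate 1 MACS, replicate 1 HOMER, replicate 2 MACS and replicate 2 HOMER lists. Of all chromosomal peaks the shares were 51.2%, 51.2%, 50.1% and 48.7%, but those did not have to meet the other lists. How much of the regions' position the choice itself set was not tested. The best 10% of those lists held 13.7%, 9.57%, 24.1% and 7.10% of the regions without a replicate 3 peak, against 45.7%, 39.1%, 68.8% and 45.3% of the regions with one and 10.5%, 9.92%, 10.2% and 9.80% of all chromosomal peaks of each list. Next to all peaks, the regions were thus more frequent at the top of both MACS lists, close in share at the top of the replicate 1 HOMER list and less frequent at the top of the replicate 2 HOMER list. In 118 regions the replicate 2 MACS rank was that of the best of several peaks, whereas all chromosomal peaks counted singly. Of the 972 regions, 17 (1.75%) stood in the best 10% of all 4 lists at once, against 390 of the 1573, or 24.8%. At the other end, 646 of the 972 (66.5%) were in the best 10% of no list, against 366 (23.3%).

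The share of regions with no replicate 3 peak fell along the score of every list. In the lowest decile of the replicate 2 HOMER score, 190 of 254 regions had no replicate 3 peak (74.8%, 69.1 to 79.7), and in the highest 3 of 255 had none (1.18%, 0.401 to 3.40). For the replicate 2 MACS score the same shares were 72.0% and 1.96%. Scores of replicate 1 separated the regions less at the top: 75.6% of the lowest and 7.06% of the highest HOMER decile, and 64.6% of the lowest and 7.06% of the highest MACS decile, had no replicate 3 peak. In the fifth replicate 2 HOMER decile, scores 34 to 38, 42.9% had none, so regions of the same score occurred in both classes. The score ranges of the 2 sets overlapped in every list, so no threshold on a single list parts them fully. Combinations of scores were not tried.

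**Figure D2:**
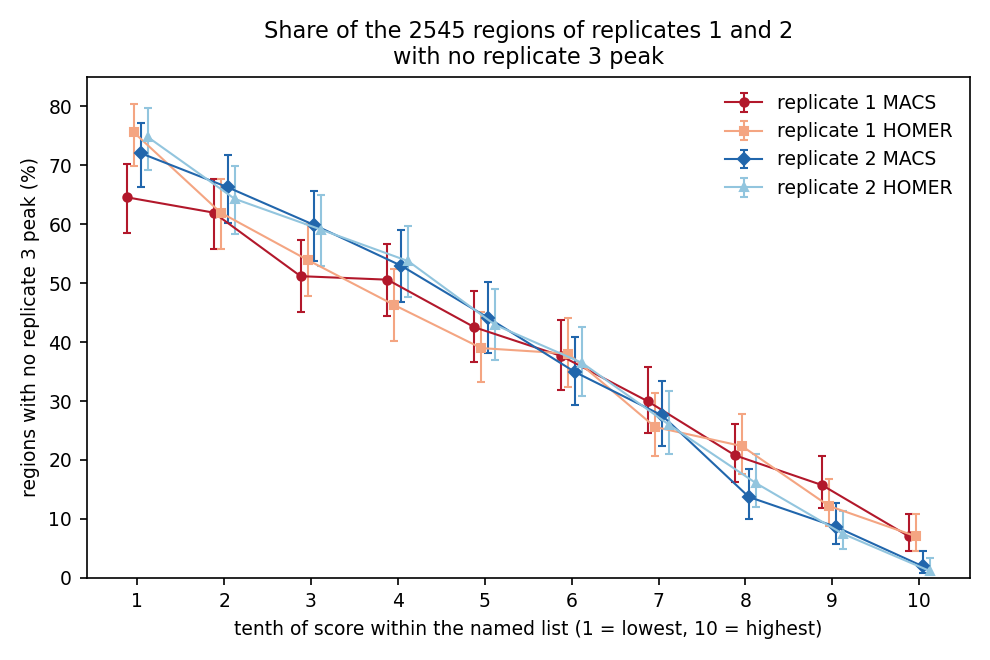
Percentage of the 2545 regions that overlap no replicate 3 peak (y axis) by decile of score within each of the 4 lists (x axis, 1 lowest and 10 highest), with 95% Wilson intervals. All 4 lines run downward, the replicate 2 lines reaching 1.96% for MACS and 1.18% for HOMER in the highest decile.

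Scores of the 2 replicates were only loosely tied to each other within the 972 regions. Across them, Spearman's rho between replicates 1 and 2 was 0.312 for MACS and 0.474 for HOMER, against 0.598 and 0.658 across the 1573 regions with a replicate 3 peak. Between the callers within a replicate, which read the same library, rho was 0.624 in replicate 1 and 0.785 in replicate 2, against 0.680 and 0.887. The 972 regions span a narrower range of scores, and regions are not independent, so these values are descriptions.

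The choice of regions required overlap, which bounds how far apart the peak centres of different lists could lie. The centres of the replicate 1 and replicate 2 HOMER peaks lay a median of 44 bp apart in regions without a replicate 3 peak and 42 bp apart in regions with one, and within 50 bp in 55.3% and 59.0% of cases. For MACS the median offset was 72.5 bp against 46.5 bp, and 36.0% against 54.2% lay within 50 bp. MACS peak widths differed too: the replicate 1 width had a median of 436.5 bp without a replicate 3 peak, 554 bp with one and 354 bp over all chromosomal peaks of that list. In replicate 2 the widths were 309, 593 and 263 bp in the same order. HOMER widths were constant within each list, at 172 bp in replicate 1 and 290 bp in replicate 2, so they carry no such information. A wider MACS peak can meet peaks of other lists more readily. How much of the order of MACS widths the overlap conditions set was not tested.

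The regions named next were picked for their ranks in both replicates, averaged without scaling to list length. The replicate 2 MACS list, with 27402 peaks, could thus weigh most in the mean. Coordinates are as deposited, 1-based, on a genome build that the sources used here do not give. Ranked by the mean of the 4 whole-list ranks, the first region lay on chromosome 4S at 92010347 to 92011031. It scored 308 by MACS and 60 by HOMER in replicate 1, and 899 by MACS and 97 by HOMER in replicate 2, which put it at rank 96 of the 10317 HOMER peaks of that replicate. Both replicate 2 values were the highest of the 972 regions, and the nearest replicate 3 peak, a HOMER peak, was 3797 bp away.

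The region next in rank was on 6L at 108428822 to 108429610, with MACS scores of 414 and 604 and HOMER scores of 56 and 84 in replicates 1 and 2. It lay 11.4 kb from the nearest replicate 3 peak and 402 kb from the nearest interval of the common list. The one after it, on 2L at 17491132 to 17492158, scored 412 and 641 by MACS and 59 and 73 by HOMER. It was also the widest of the 12 best-ranked regions, at 1027 bp, and was 5.20 kb from a common interval. A region on 1L at 111355827 to 111356533, sixth in rank, stood far from anything in replicate 3, at 158 kb from its nearest peak, yet had MACS scores of 427 and 543 in replicates 1 and 2.

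The other 8 of the 12 lay on 2S at 134906332 to 134906827, 7S at 84111176 to 84111704 and at 58268255 to 58269114, 8L at 29390421 to 29390973 and at 107765248 to 107765818, 3S at 66238910 to 66239406, 1L at 137286057 to 137286932, and 2L at 119665950 to 119666560. Among the 12, the 8L region at 29390421 had the highest replicate 1 HOMER score of all 972, 69, with 61 in replicate 2. The 3S region was uneven between replicates by MACS rank. It scored 177 in replicate 1, at rank 1369.5 of 10351, and 704 in replicate 2, at rank 274 of 27402. The 2L region at 119665950 came closest to being shared, with a replicate 3 MACS peak 347 bp away. Nearest genes were not assigned and no sequence is shown, because a genome of the build used for these lists was not used here.

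Regions that just met the condition on replicate 3 were few. The 3 nearest to a replicate 3 peak, on 1L at 182403650, 6L at 141095942 and 3L at 143959005, were 1, 4 and 21 bp from a replicate 3 HOMER peak. Their replicate 2 HOMER scores were 29, 25 and 32. The 3 that just failed it, on 1L at 170677188, 2S at 24134495 and 7L at 104283993, shared 1, 1 and 14 bp with a replicate 3 peak and had replicate 2 HOMER scores of 17, 20 and 23. Within 100 bp of the limit there were 11 regions on the side without overlap and 25 on the side with it.

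Replicate 3 peaks that the regions did not overlap were slightly nearer to them than to other peaks. The nearest replicate 3 peak of either caller was a median of 13.0 kb away (quartiles 4.27 and 31.3 kb), against 16.8 kb for the other 5109 replicate 1 MACS peaks that overlap no replicate 3 peak. Within 10 kb of one lay 401 of the 972, or 41.3% (38.2 to 44.4). Over all 6081 replicate 1 MACS peaks without a replicate 3 peak the share was 37.2%, slightly below that interval. Within 1 kb it was 8.02% (6.48 to 9.90), against 6.54% (5.89 to 7.25) of the other 5109, and these intervals overlap. The nearest replicate 3 peak was a MACS peak for 676 of the 972 regions and a HOMER peak for 296. Within 1 kb, a replicate 3 MACS peak lay near 46 regions and a replicate 3 HOMER peak near 44. The MACS list held 36384 chromosomal peaks and the HOMER list 3916, so equal counts do not mean equal frequency per peak.

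Each of the 855 intervals of the common list overlapped a peak in every one of the 6 lists, and 796 of them were on chromosomes. Not every region with peaks in all 6 lists met a common interval. None of the 972 regions overlapped a common interval, an outcome that the condition on replicate 3 had nearly fixed. They lay a median of 929 kb from the nearest (quartiles 111 and 2546 kb), against 685 kb for the 855 regions of the same 4 lists that had a replicate 3 peak but no common interval, and 1282 kb for the other 7752 replicate 1 MACS peaks without a common interval. The distances thus fell between those of the 2 other sets and overlapped both widely. These 2 sets are not separate, as the 7752 peaks include the 855 regions. The equality of 855 regions and 855 common intervals is a coincidence of counts.

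Close neighbours of common intervals were a minority. Within 10 kb lay 73 of the 972 regions, or 7.51% (6.02 to 9.34), against 11.5% (9.50 to 13.8) of the 855 regions with a replicate 3 peak and 5.80% (5.31 to 6.35) of the other replicate 1 MACS peaks. Over all 8724 replicate 1 MACS peaks without a common interval the share was 5.99%, just below the lower bound for the 972. The 73 regions had 73 different nearest common intervals, so they did not gather around a few. Within 50 kb the share was 19.5% (17.2 to 22.2), against 24.2% (21.5 to 27.2) and 12.9% (12.2 to 13.7). Beyond 1 Mb lay 468 regions, or 48.1%.

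The nearest of all to a common interval were a region on 7L at 119973693 to 119974085, 238 bp away, one on 8L at 57465232 to 57465809, 415 bp away, and one on 6L at 65933945 to 65934386, 655 bp away. The 6L region had the highest scores of the 3, with MACS scores of 150 and 293.5 and HOMER scores of 39 and 61 in replicates 1 and 2. The 3 farthest were all near the end of chromosome 1L, at 216386033, 211092458 and 210183820, and were 23295, 18001 and 17093 kb from the nearest common interval.

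Proximity to common intervals went with score inside the 972. The 243 best-ranked regions by the same unscaled mean rank had 35 within 10 kb of a common interval, or 14.4% (10.5 to 19.4). Their median distance was 508 kb. The 243 worst-ranked had 7, or 2.88% (1.40 to 5.83), and a median distance of 1181 kb. In between, the shares were 9.05% and 3.70%. Regions within 10 kb had median MACS scores of 138 and 168 and median HOMER scores of 30 and 37 in replicates 1 and 2, against 119 and 107 by MACS and 25 and 30 by HOMER for those farther away. Scores followed this order by construction, since the ranks are ranks of score. Width moved along it too, with a median replicate 1 MACS width of 542 bp in the best-ranked and 357 bp in the worst-ranked 243 regions. The median distance to a replicate 3 peak also differed, at 8.59 kb in the best-ranked and 16.4 kb in the worst-ranked. The part of score and width in these distances was not tested.

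**Figure D3:**
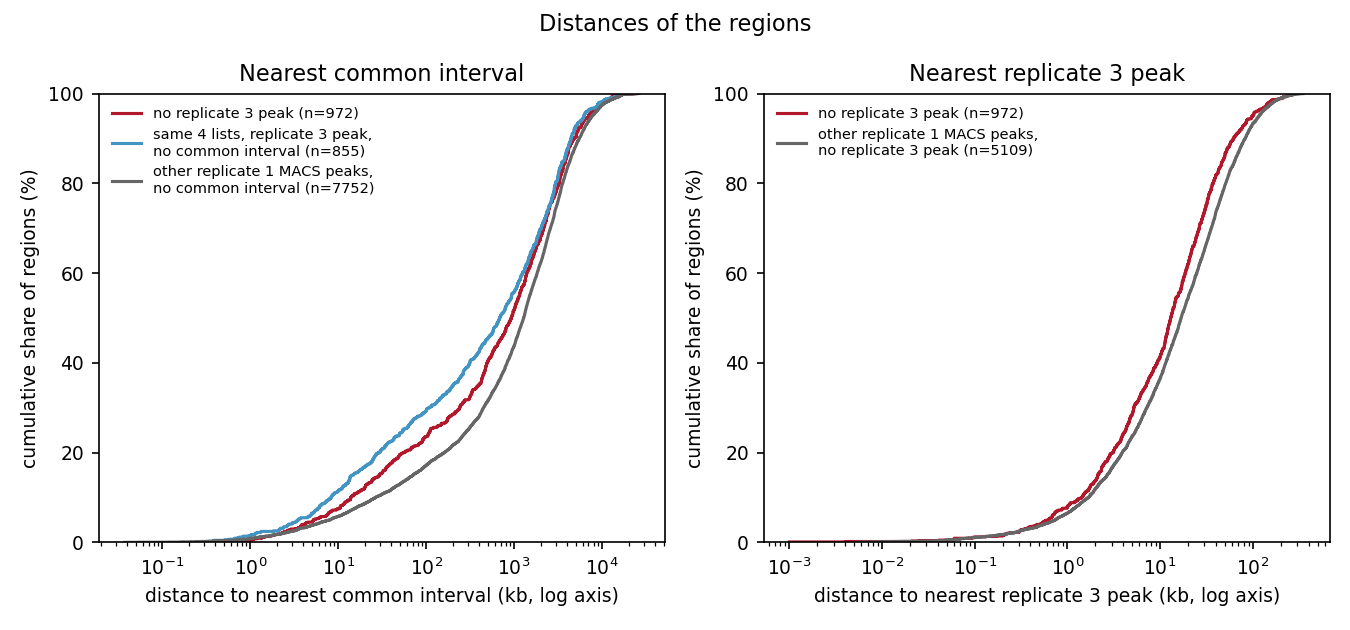
Cumulative percentage of regions (y axes) by distance in kb (log x axes) to the nearest common interval on the left and to the nearest replicate 3 peak on the right. On the left the 972 regions without a replicate 3 peak run between the 855 regions of the same 4 lists and the 7752 other replicate 1 MACS peaks, with medians of 929, 685 and 1282 kb; on the right their median of 13.0 kb lies left of 16.8 kb for the other peaks.

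Neighbours were counted first among the 972 regions alone and then among all 2545. Another of the 972 lay within 10 kb of 100 regions, or 10.3% (8.53 to 12.4), and the median distance to the nearest was 445 kb. Counting any of the 2545 regions as neighbour, 21.5% (19.03 to 24.2) had one within 10 kb, against 30.7% (28.5 to 33.0) of the 1573 regions with a replicate 3 peak and 17.6% of all replicate 1 MACS peaks. The median distance to such a neighbour was 102 kb, against 37.99 kb and 198 kb in the same order. The regions thus lay nearer to another of the 2545 than replicate 1 MACS peaks at large did. They lay farther from one than regions with a replicate 3 peak did. Peaks at large include the 2545, and the same 4 conditions chose both the regions and these neighbours. How much of this order the choice itself set was not tested, and distances to other replicate 1 MACS peaks were not measured. Of the 972, 121 had within 10 kb a region that replicate 3 also held.

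The regions were found on all 18 chromosomes, from 28 on 9_10S to 91 on 1L. Per Mb, with a chromosome's length set by its last peak in any list, 9_10L held the most, 0.585, followed by 8L with 0.558 and 7L with 0.528. Chromosomes 2S, 3S and 9_10S held the fewest, 0.257, 0.266 and 0.268. The share of the 4-list regions that lacked a replicate 3 peak ranged over chromosomes from 25.2% (18.1 to 34.0) on 9_10S to 48.2% (39.3 to 57.3) on 4S, and these extremes do not overlap in their intervals, although they were picked from 18.

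**Figure D4:**
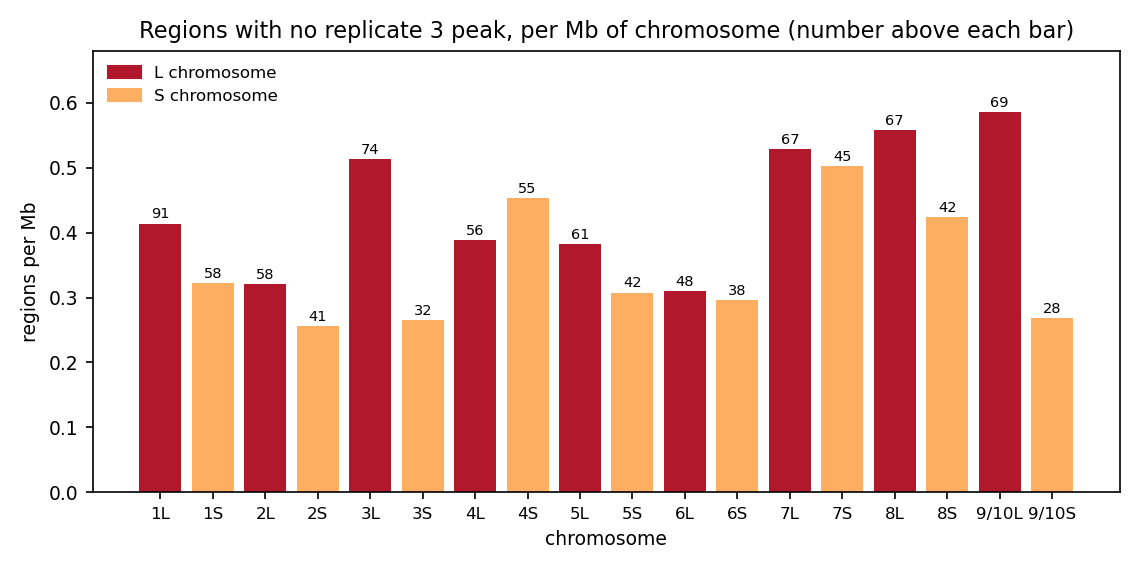
Regions without a replicate 3 peak per Mb of each chromosome (y axis), L and S members of each pair side by side in different colours, with the number of regions above each bar. The L bar is the taller in 8 of 9 pairs, pair 4 being the exception with 56 regions on 4L and 55 on the shorter 4S.

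Density was higher on L than on S chromosomes in 8 of the 9 pairs. In all, 591 of the 972 regions were on L and 381 on S, 60.8% on L (57.7 to 63.8), while L chromosomes made up 54.6% of the summed length. Density was 0.432 per Mb on L and 0.334 per Mb on S. On the log2 scale, the L to S density ratio averaged 0.38 ± 0.43 (SD over 9 pairs), from -0.22 in pair 4 to 1.13 in pair 9_10. Pairs 9_10 and 3, at 1.13 and 0.95, stood far above the others, which reached 0.39 at most. On 9_10 the numbers were 69 on L and 28 on S, and on 3 they were 74 and 32.

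Related sets were also denser on L on average, though those with replicate 3 peaks of both callers only slightly. Regions of the same 4 lists with a replicate 3 peak gave 0.19 ± 0.13, denser on L in 9 of 9 pairs, with 58.2% (55.7 to 60.6) on L. The difference between the sets averaged 0.19 ± 0.47 over pairs and was positive in 5 of 9, less than its own spread. All chromosomal replicate 1 MACS peaks gave 0.13 ± 0.079, which the 972 regions exceeded in 8 of 9 pairs, by 0.25 ± 0.42. Regions with a replicate 3 HOMER peak alone stood at 0.44 ± 0.30, which the 972 regions exceeded in 3 of 9 pairs, with a mean difference of -0.066 ± 0.57. Those with peaks of both callers stood at 0.035 ± 0.16, denser on L in 5 pairs and on S in 4, with 55.6% (52.1 to 58.9) on L. The 972 regions exceeded them in 7 of 9 pairs, by 0.34 ± 0.47. All 4 mean differences were smaller than their SD over pairs. Pairs 9_10 and 3 departed most, at 1.13 and 0.95 without a replicate 3 peak, against 0.12 and 0.038 with one. Chromosome pairs are not replicates, and how well reads map to L and S copies was not measured.

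**Figure D5:**
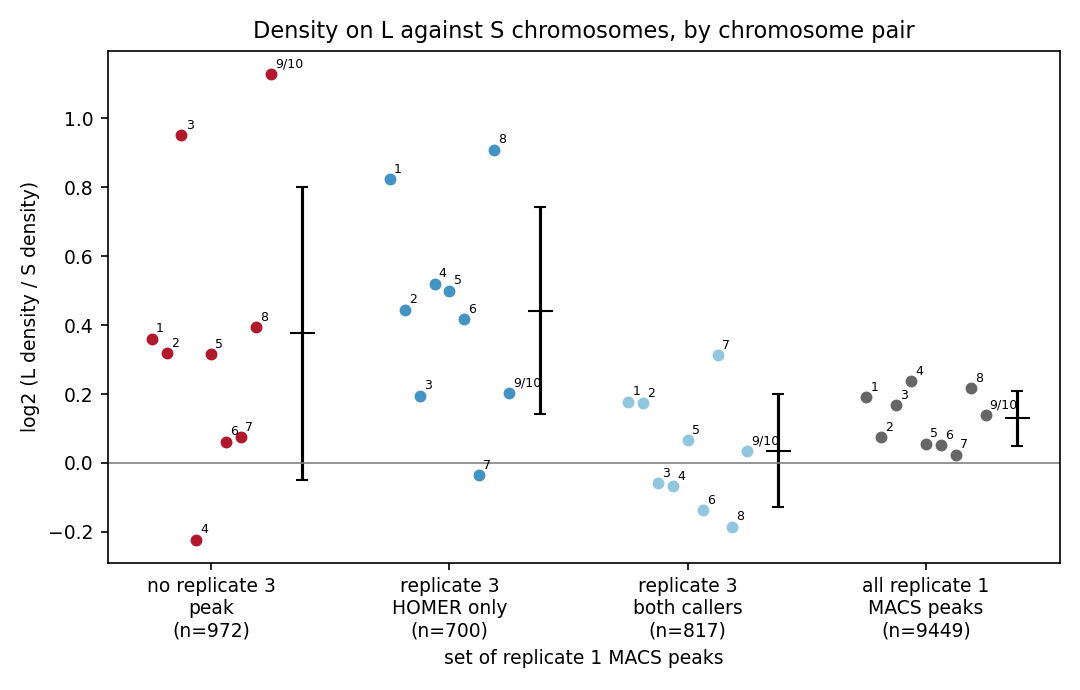
log2 ratio of L to S density (y axis) for each of the 9 chromosome pairs (labelled points), for 4 sets of replicate 1 MACS peaks, with mean and SD over pairs in black. The 972 regions without a replicate 3 peak spread from -0.22 in pair 4 to 1.13 in pair 9_10, wider than any other set shown.

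Members on L and S chromosomes did not stand apart in score. Median MACS scores were 118 on L and 122 on S in replicate 1, and 109 on L and 111 on S in replicate 2. Median HOMER scores were 26 on L and 25 on S in replicate 1 and 30 on both in replicate 2. Within 10 kb of a common interval lay 7.95% of the L and 6.82% of the S regions.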

How the data were processed

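The submitters' processing notes name bedtools, Bowtie2, HOMER, MACS and SAMtools, while versions, settings and the genome build are not given in the sources used. The authors deposited 1 MACS and 1 HOMER list per ChIP replicate, each called against 1 input per the list names, and 1 common list. Column 5 of the deposited files was treated as a score from the authors' caller, undefined by any header and used only within its list. All 855 common scores equalled a mean of 3 overlapping MACS scores to within 0.01.

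Overlap was at least 1 bp. Where several peaks of a list overlapped a region, the highest score was used; distances are bp between interval edges. Regions named are the 12 with the best mean of 4 ranks, and the 3 nearest to or farthest from a common interval or the overlap limit. Members, rules and lists were chosen with earlier results of these data known; decile and rank-group descriptions were added later. The labels do not say whether replicates were separate clutches, and inputs have no values of their own here. A gene table of another named assembly was not applied. The selection was checked against bedtools 2.31.1 (0 of 972 regions differed) and tested on simulated data. Computations ran in Python 3.11.15 with matplotlib 3.10.9, scipy 1.17.1, pandas 2.3.3 and numpy 2.4.6. Alternatives were other overlap rules, score thresholds, excluding lists, counted lists and windows, and leaving out each replicate or chromosome pair.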

Additional observations from a re-analysis of the deposited data

How the results depend on the processing

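Some alternatives to the overlap and exclusion rules left the numbers near their main values, and others moved them. With peak centres within 200 bp, or no replicate 3 peak allowed within 500 bp, every one of the 11 results stayed within its interval or, for the number of regions (938 and 933), within 1.5 times. The ratio of L to S density stayed positive in all 21 alternatives, within 1 SD over pairs, at 0.28 to 0.45 with 1 chromosome pair left out and 0.25 per replicate 1 MACS peak, an alternative chosen after seeing the data.

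With at least 50% of both intervals shared, 114 regions met the rule, 72.6% of their 4-list set. The same 50% applied to the exclusion, so a region with a smaller overlap with a replicate 3 peak counted as lacking one. The 114 regions had median scores of 82.5 and 20 (MACS and HOMER, replicate 1) and 94.1 and 28 (replicate 2). Their median distance to a common interval was 1387 kb, with 1.75% within 10 kb of one. Within 10 kb of another region lay 0% (Wilson interval up to 3.26%). Fixed HOMER widths limit what can pass this rule. The better 50% of each list raised the scores, by construction, to 149, 31, 168 and 36 in the same order. It raised the share without replicate 3 to 44.3% and the share near a common interval to 11.8%. Distances were 692 kb to a common interval and 26.6 kb to a replicate 3 peak. The replicate 3 lists were cut as well, leaving fewer peaks to exclude a region or lie near it. A region that met only a dropped replicate 3 peak was let in, and could overlap a common interval, since the common list was not cut. The 44.3%, the 11.8%, the 692 kb and the 26.6 kb are thus not comparable with the values from full lists. Excluding by the replicate 3 MACS list alone gave 1672 regions (65.7%), scores of 132, 28, 142 and 33, and 14.9% near another region. The median distance to a replicate 3 peak of either caller was then 2.05 kb. The 1672 include the 700 regions that overlap a replicate 3 HOMER peak, so this distance is not comparable with the main value. By HOMER alone the share was 40.4%. Counting replicate 2 MACS peaks put 20.4% within 10 kb of another. Windows of 1, 50 and 100 kb gave 0.514%, 19.5% and 23.6% near a common interval and 2.06%, 21.3% and 27.3% near another region.

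Leaving out a replicate asks fewer lists to agree. It gave 2545 to 3078 regions, 55.1% to 61.5% without replicate 3, median scores of 87.4 to 156 and 21 to 31 in replicate 1 and 76.8 to 209 and 26 to 38 in replicate 2, distances of 175 to 1138 kb to a common interval and -0.27 (an overlap) to 15.3 kb to a replicate 3 peak, and shares within 10 kb of 5.04% to 34.9% for a common interval and 18.6% to 29.6% for another region. Without replicate 3 no region was excluded, so the 34.9% and the 175 kb include regions that overlap a common interval. Without replicate 1 the peaks counted were replicate 2 MACS peaks, so the 29.6% is not comparable with the main value either. Other causes were not tested. Depth is unknown, so weak enrichment in replicate 3 was not measurable. No paired analysis was possible because inputs entered only through peak calling.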

Other observations

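Groups of the regions within 10 kb of each other were small: 872 stood alone, 41 groups held 2 and 6 held 3. The groups of 3 lay on 2L from 175343614 to 175351871, on 3S from 120381445 to 120396486, on 5L from 38828137 to 38838343, on 7L from 8801924 to 8808244 and from 92944872 to 92952587, and on 9_10L from 79465406 to 79480320. They were singled out after their values were seen. The nearest common interval was 8.05 kb from the first 7L group and 12.9 kb from the 2L group, but 5089 kb from the 5L group and 1062 kb from the 9_10L group. In the 9_10L group the replicate 1 MACS scores were even, between 196 and 218, whereas in the first 7L group they ran from 59.6 to 366.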
